A study of Arabidopsis thaliana with 3 samples.

Results

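The transcripts described here come from 10 genes that pattern and build stomata, the adjustable pores of the leaf surface: SPCH, MUTE, FAMA, EPF1, EPFL9, TMM, ERECTA, SDD1, YDA and BASL. They were picked by locus code, and each is represented by 1 probe, out of 25665 loci carried by the arrays. Expression was compared in whole Arabidopsis thaliana seedlings, aged 3 days, between the mutant tdt-1 and wild type. Per the labels, both genotypes were raised at 22 °C under constant light on plates of MS agar, and wild type is described by that name alone. On each of 3 Agilent arrays of 2 colours, RNA of tdt-1 and RNA of wild type were hybridised together. The tdt-1 RNA carried Cy5 on replicates 1 and 2 and Cy3 on replicate 3, and the series' design text calls the arrays biological replicates. A ratio below is the log2 of tdt-1 divided by wild type, and its mean is given ± SD (n = 3 arrays).

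Stomata arise in the epidermis from a short series of cell divisions driven by related basic helix-loop-helix (bHLH) transcription factors. SPCH starts the lineage, MUTE ends its asymmetric divisions and FAMA lets the last cells become guard cells. Secreted peptides of the EPF family, read by receptors of the ERECTA family together with TMM, act through a kinase cascade headed by YDA to hold SPCH back, and the competing peptide EPFL9 promotes stomata. SDD1, a subtilisin-like protease, limits their number, and BASL marks the pole of a dividing precursor. The labels do not name the gene mutated in tdt-1. The reference table lists TDT as a synonym of DCP2 (AT5G13570), the mRNA decapping enzyme, which stood at −0.44, −0.46 and −0.96 on replicates 1, 2 and 3 (limma adjusted p = 0.0629). The locus whose symbol is TDT in that table, AT5G47560, a tonoplast dicarboxylate transporter, stood at 0.10, 0.06 and −0.74 (limma adjusted p = 0.545). The sources used here do not say which locus is mutated or where, so these values check no label.

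All 10 probes were well above background in both genotypes on all 3 arrays, as judged by the scanner software's flag, and none was saturated. All 10 therefore entered the test, among 20484 tested loci. The probes of SPCH (AT5G53210), MUTE (AT3G06120) and BASL (AT5G60880) are placed in the array files at chr5:21603866-21604853, chr3:1847573-1847986 and chr5:24506060-24506202. These stretches of 988, 414 and 143 bases are longer than the 60 bases over which each of the other 7 probes is placed. FAMA (AT3G24140) is probed at chr3:8715418-8715477, EPF1 (AT2G20875) at chr2:8990263-8990322 and EPFL9 (AT4G12970) at chr4:7586149-7586208. TMM (AT1G80080) is probed at chr1:30133006-30133065 and ERECTA (AT2G26330) at chr2:11215479-11215538. SDD1 (AT1G04110) is probed at chr1:1061473-1061532 and YDA (AT1G63700) at chr1:23628927-23628986. The sources used here do not name the genome build of these positions.

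In tdt-1 seedlings SDD1 and FAMA were lower, and none of the 10 genes was higher. SDD1 was 2.49-fold lower (−1.31 ± 0.42) and FAMA 1.52-fold lower (−0.61 ± 0.15), each tested with limma over all loci (adjusted p = 0.0294 and 0.0380). The other 8 genes did not pass. Of all tested loci 5.97% were lower and 7.36% higher by the same rule, 13.3% in either direction. No test over the group was run, so 2 of 10 genes lower is not read as a result about the group. At an unadjusted p under 0.05 there were 5 of the 10, namely MUTE, FAMA, EPF1, TMM and SDD1, all with means below 0, beside 7181 of all 20484 tested loci. The median ratio of the 10 genes was −0.36, beside 0.02 over all tested loci. It was −0.44, −0.32 and −0.37 on replicates 1, 2 and 3, where all tested loci had medians of 0.04, 0.03 and −0.01. With median centring in place of loess, neither gene passed and the median of the 10 was −0.17. Of the 10 genes 7 had a mean below 0, beside 9644 of the 20484 tested loci, and 7 had the same sign on every array, beside 12058. In RNA of whole seedlings, fewer cells of the lineage and less RNA per cell cannot be told apart.

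**Figure D1:**
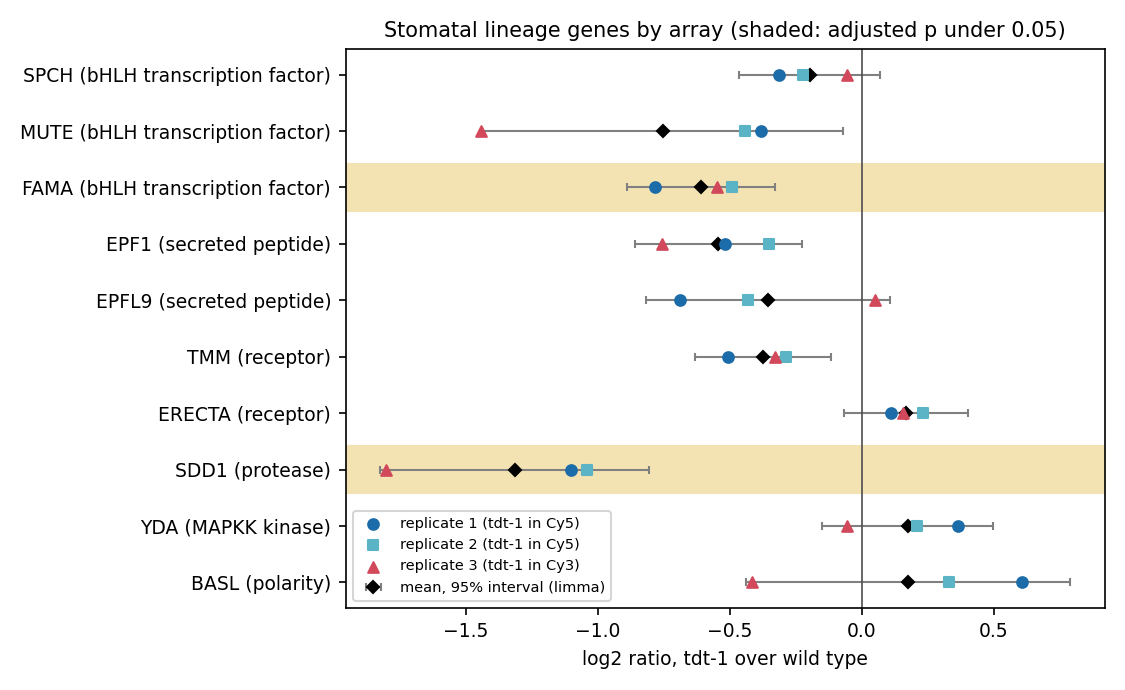
Log2 ratio of tdt-1 over wild type (x axis) for each stomatal lineage gene (rows, with its role), on replicates 1, 2 and 3 (coloured points), with the mean and its 95% limma interval (black). SDD1 lies furthest left, at −1.31, and FAMA at −0.61 is the other gene past the test, while ERECTA, YDA and BASL have means above 0 as reported (YDA is at −0.00236 after median centring in place of loess).

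Of the bHLH factors, FAMA was lower on every array, at −0.78, −0.49 and −0.55 on replicates 1, 2 and 3. Its normalized log2 intensity was 9.17, 9.22 and 8.90 in tdt-1 and 9.96, 9.71 and 9.45 in wild type. The highest tdt-1 value thus lay below the lowest wild-type value. MUTE, which acts just before FAMA, had ratios of −0.38, −0.44 and −1.44, and its mean, −0.75 ± 0.60, missed the threshold (limma adjusted p = 0.120). Its log2 intensity was 7.57, 7.57 and 7.40 in tdt-1 and 7.95, 8.01 and 8.84 in wild type. The mean of MUTE was −0.75 without background correction, −0.87 with a background offset of 16 and −1.11 by the scanner software's log ratio. The genotypes did not overlap for MUTE either, but the gap on replicate 3 was larger than on the other arrays. The share of all tested loci without overlap is not given here, so the separation does not set FAMA or MUTE apart. SPCH, at the head of the lineage, had ratios of −0.31, −0.22 and −0.06 and a mean of −0.20 ± 0.13 (limma adjusted p = 0.234). Its 95% interval ran from −0.46 to 0.07, so a fall larger than 0.46 on the log2 scale lies outside it. A locus adjoining SPCH in the reference table is TRY, an inhibitor of trichome formation, which was lower in tdt-1 at −0.74 ± 0.10 (limma adjusted p = 0.0244), a call lost without replicate 1 or without replicate 2 (limma adjusted p = 0.148 and 0.187). The other neighbour of SPCH, AT5G53220, did not pass (−0.27 ± 0.31, limma adjusted p = 0.265). Beside EPFL9, AT4G12980 was also lower (−1.24 ± 0.45, limma adjusted p = 0.0345). No other tested neighbour of the 10 genes passed, and their means lay on both sides of 0. ERF53 beside EPF1 stood at 1.29 ± 0.64 and SPPL2 beside YDA at 0.52 ± 0.17 (limma adjusted p = 0.0527 and 0.0516). Of all tested loci 5.97% were lower and 7.36% higher. A link between neighbours and members was not tested.

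The peptide genes had opposing roles but neither passed. EPF1, which represses stomata and enforces their spacing, had ratios of −0.52, −0.35 and −0.76 on replicates 1, 2 and 3. Its log2 intensity was 7.55, 7.48 and 7.62 in tdt-1 and 8.07, 7.83 and 8.38 in wild type. The mean of −0.54 ± 0.20 missed the threshold narrowly (limma adjusted p = 0.0551). EPFL9, also called STOMAGEN and made in the mesophyll, had ratios of −0.69, −0.43 and 0.05, so that replicate 3 differed in sign from the others. Its mean was −0.35 ± 0.37 (limma adjusted p = 0.220).

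The receptor genes stood on different sides of 0. TMM, a receptor-like protein without a kinase domain, had log2 intensities of 10.26, 10.39 and 10.59 in tdt-1 and 10.77, 10.68 and 10.92 in wild type. Its ratios were −0.51, −0.28 and −0.33, and the mean was −0.37 ± 0.12, short of the threshold (limma adjusted p = 0.0746). ERECTA, a receptor kinase also used in stem growth, had ratios of 0.11, 0.23 and 0.16 and the smallest SD of the 10 genes, at 0.17 ± 0.06 (limma adjusted p = 0.248). Its 95% interval ran from −0.07 to 0.40. The intervals of TMM and ERECTA did not overlap.

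The SDD1 protease gene had the lowest ratio of the 10 on each array, at −1.10, −1.04 and −1.80 on replicates 1, 2 and 3. Its log2 intensity was 8.98, 8.88 and 8.08 in tdt-1 and 10.09, 9.92 and 9.88 in wild type. The genotypes were about 1 log2 unit or more apart on every array, and 1.2% of all tested loci had a mean ratio as low or lower. The kinase gene YDA, at the head of the cascade, had ratios of 0.37, 0.21 and −0.05 (mean 0.17 ± 0.21, limma adjusted p = 0.353). BASL, the polarity gene, had ratios of 0.61 and 0.33 on replicates 1 and 2 against −0.41 on replicate 3 (mean 0.18 ± 0.53, limma adjusted p = 0.614). YDA and BASL thus stood above 0 on replicates 1 and 2 and below 0 on replicate 3.

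**Figure D2:**
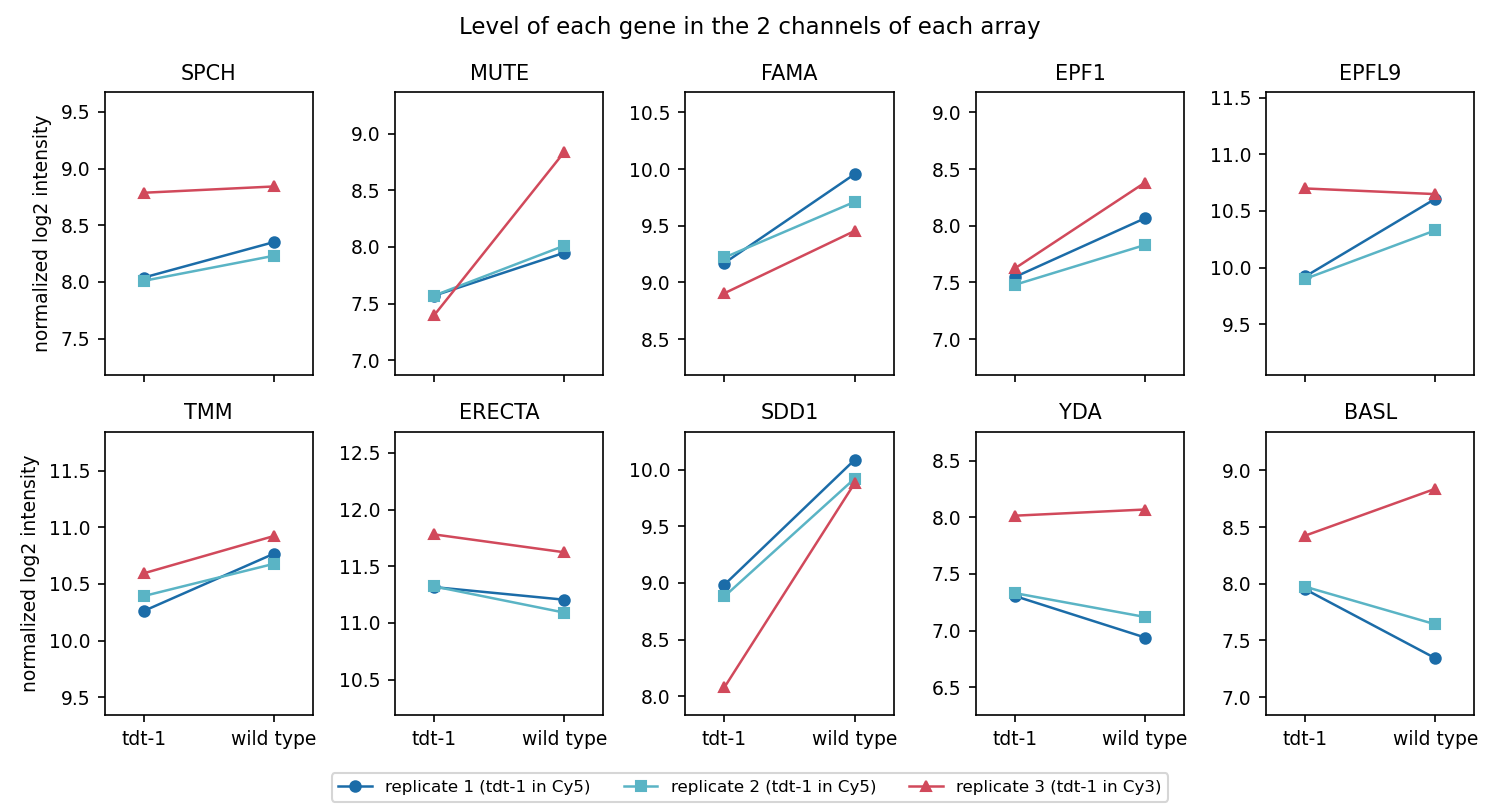
Normalized log2 intensity (y axis, each panel spanning the same range) of the 10 genes in tdt-1 and in wild type, with 1 line per array joining the channels. Lines for SDD1, FAMA, MUTE, EPF1, TMM and SPCH climb from tdt-1 to wild type on all 3 arrays, for SPCH only slightly on replicate 3. Those for EPFL9, BASL and YDA run in different directions.

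The 95% intervals of the 10 ratios were apart for some pairs of genes and give no full order. Differences between genes within arrays were not tested. SDD1 lay wholly below 5 others, namely SPCH, TMM, ERECTA, YDA and BASL, and overlapped MUTE, FAMA, EPF1 and EPFL9. EPF1 and FAMA each lay wholly below ERECTA and YDA, and MUTE and TMM below ERECTA alone. For MUTE this was by a hair, with an upper end of −0.0701 against a lower end of −0.0683 for ERECTA. All other pairs overlapped. The median SD over arrays was 0.21 for the 10 genes and 0.21 for all tested loci. The median gap between replicates 1 and 2 was 0.16 for the 10 genes and 0.10 for all tested loci, and that between replicate 3 and their mean was 0.33 and 0.32. With 3 arrays, an exact two-sided sign test of a single gene cannot go below p = 0.25, so the calls rest on limma's spread shared across loci.

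The calls for SDD1 and FAMA depended on which arrays entered and on the normalization. With median centring of all 3 arrays they stood at −1.14 and −0.43 (limma adjusted p = 0.227 and 0.331). Without replicate 1 or without replicate 2 neither passed (limma adjusted p = 0.0749 and 0.0818 for SDD1, 0.235 and 0.206 for FAMA), although the means stayed between −1.45 and −1.07 for SDD1 and between −0.67 and −0.52 for FAMA over the arrays left out in turn. Without replicate 3, 7 of the 10 genes were lower and 2, YDA and BASL, higher, and 26.7% of all tested loci were then lower and 34.2% higher. Replicates 1 and 2 share a scan day, an array layout and the dye order, and replicate 3 differs in all of these, so dye, layout and scan day cannot be told apart. Within the scan day of replicates 1 and 2 SDD1 stood at −1.07 and FAMA at −0.64. The other scan day holds 1 array, with −1.80 and −0.55. Over tested loci, replicates 1 and 2 correlated at r = 0.940, and replicate 3 with them at 0.527 and 0.573. These correlations are across loci, which are not independent replicates.

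**Figure D3:**
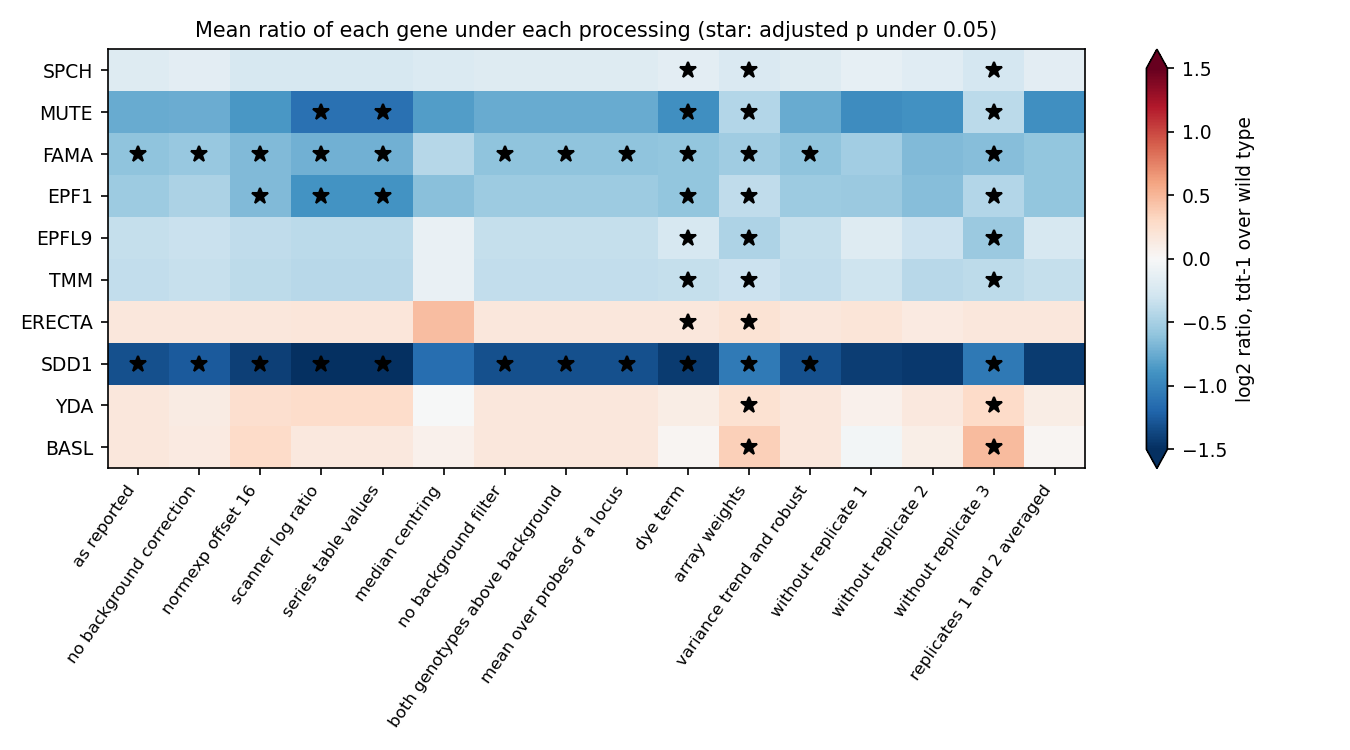
Mean log2 ratio of tdt-1 over wild type (colour) of each gene (rows) as reported and under each of 15 other ways of processing (columns), with a star where the limma adjusted p was under 0.05. SDD1 and FAMA are starred as reported and under 11 of the 15, and SDD1 has the lowest value in every column. These 11 are not separate support. The probe rule and the filter changes leave both ratios as reported, and the series table repeats the scanner's log ratio. A dye term, array weights and leaving out replicate 3 call 64.4%, 72.6% and 60.9% of all tested loci.

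Few further genes of stomatal development passed the test. Of 42 such genes listed from general knowledge of the pathway, 39 were tested, and 2 rose, 1 fell and 36 did not pass (limma, adjusted p under 0.05). Both shares were below the 7.36% and 5.97% of all tested loci. At an unadjusted limma p under 0.05 there were 10 of the 39, beside 7181 of all 20484 tested loci. The list median was −0.08, beside 0.02 over all tested loci. The largest ratio belonged to CRSP (AT1G20160, ATSBT5.2 in the reference table), a secreted subtilase that processes the peptide EPF2 and is known for its part in the response to carbon dioxide. It was 8.15-fold higher, with 3.28, 3.42 and 2.38 on replicates 1, 2 and 3 (3.03 ± 0.57, limma adjusted p = 0.0160). CRSP and SDD1, both subtilases, thus moved in opposite directions on every array. FLP, a MYB factor that halts the division of guard mother cells, was higher at 0.67, 0.79 and 0.80 (0.76 ± 0.07, limma adjusted p = 0.0227). Its paralog MYB88 had 0.26, 0.51 and 0.99 and did not pass (0.59 ± 0.37, limma adjusted p = 0.0922). AGL16, a MADS-box factor linked to satellite stomatal complexes, was lower at −0.74, −0.76 and −0.97 (−0.82 ± 0.13, limma adjusted p = 0.0231). Without replicate 1 or without replicate 2, CRSP still passed (limma adjusted p = 0.0319 and 0.0325), and FLP and AGL16 did not. CRSP did not pass with median centring (3.34, limma adjusted p = 0.105) or with replicates 1 and 2 averaged (2.87, limma adjusted p = 0.0529).

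The binding partners, relatives and downstream kinases described next did not pass. SCRM and SCRM2, which pair with the bHLH factors, stood at −0.10 ± 0.21 and −0.38 ± 0.15. EPF2, the peptide that limits entry into the lineage, stood at −0.12 ± 0.19 and its relative EPFL5 at 0.34 ± 0.34. EPFL6 had a probe that was not tested, and EPFL4 had none. The ERECTA-like receptors ERL1 and ERL2 stood at −0.14 ± 0.19 and −0.36 ± 0.19. Of the SERK co-receptors, SERK1 stood at 0.36 ± 0.19, BAK1 at 0.32 ± 0.06 and SERK2 at −0.31 ± 0.20. The kinases below YDA lay near 0, with MKK4 at 0.02 ± 0.10, MKK5 at −0.03 ± 0.02 and MPK6 at −0.15 ± 0.04, and MPK3 at 0.07 ± 0.66. MPK3 was above 0 on replicates 1 and 2, at 0.49 and 0.42, and at −0.69 on replicate 3. The polarity factors POLAR and BRXL2, which act with BASL, stood at −0.13 ± 0.19 and −0.08 ± 0.31. HDG2 and SCAP1, transcription factors of the lineage and of guard cells, stood at −0.38 ± 0.10 and −0.29 ± 0.06. Limma adjusted p values over these genes lay above the threshold of 0.05, the lowest being 0.0687 for HDG2.

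**Figure D4:**
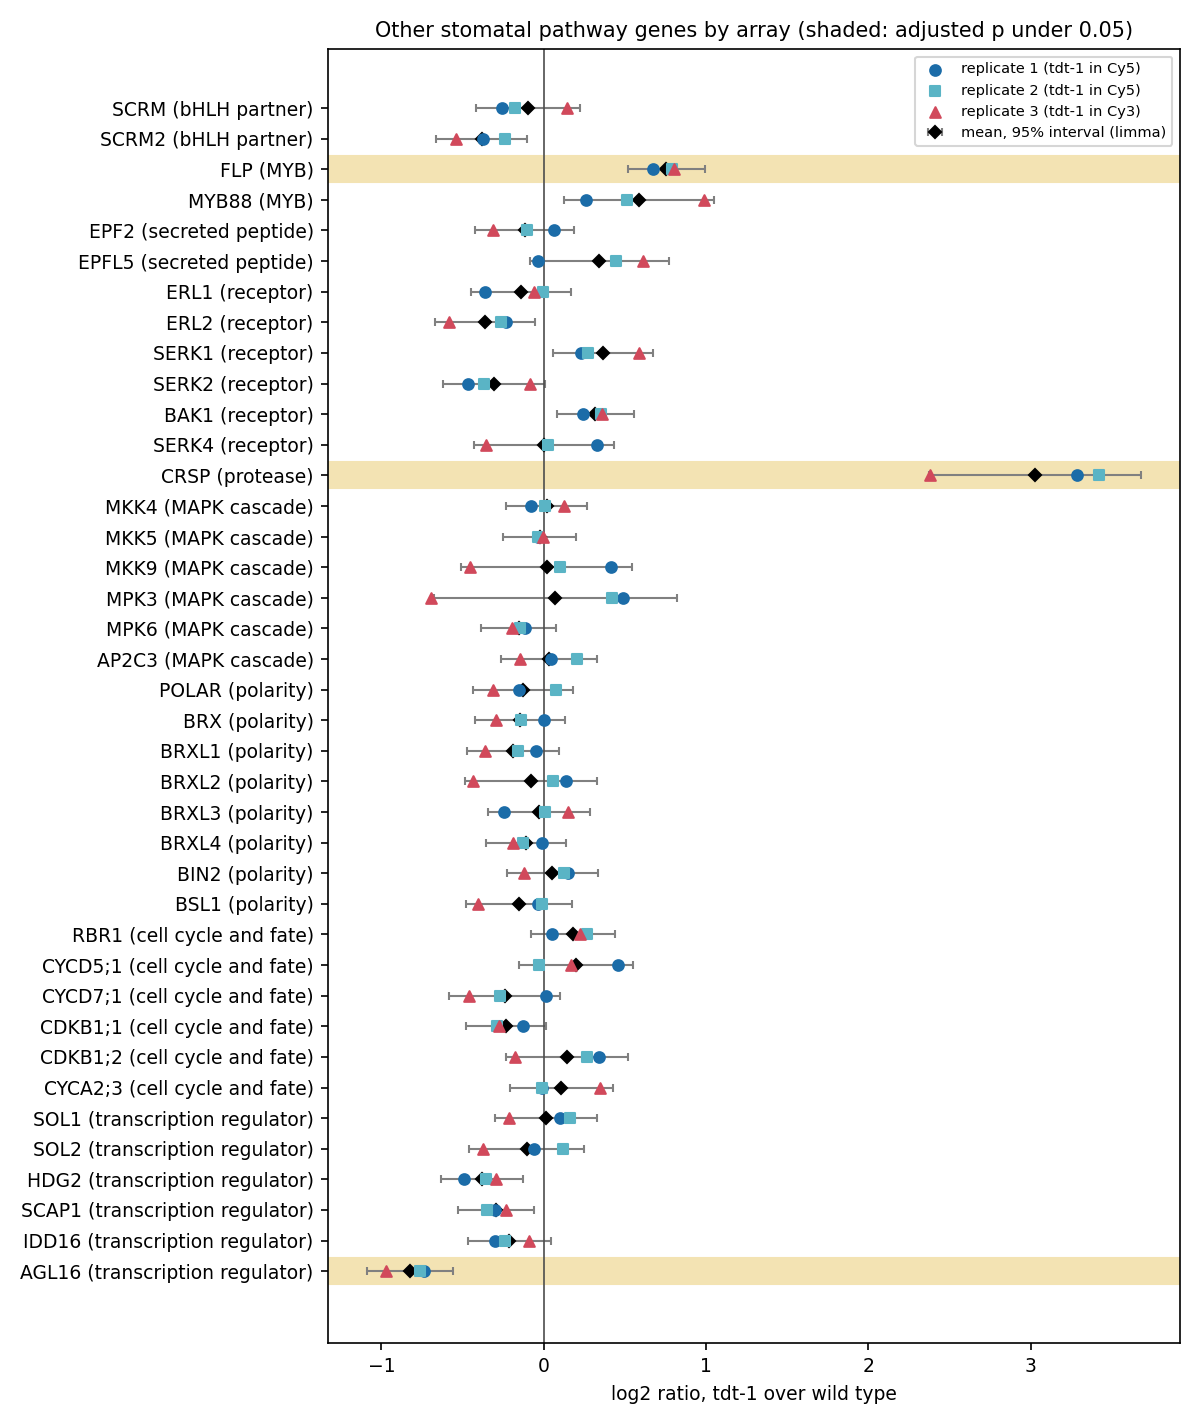
Log2 ratio of tdt-1 over wild type (x axis) for the 39 tested further genes of stomatal development (rows, with their role), by array, with the mean and its 95% limma interval. CRSP lies at 3.03, far to the right of all others, FLP and AGL16 are the other shaded genes, and MKK4 and MKK5 lie near 0.

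Markers of mature guard cells moved in both directions. Of 12 tested markers 1 rose, 2 fell and 9 did not pass, with a list median of −0.21, beside 7.36% of all tested loci higher and 5.97% lower. At an unadjusted limma p under 0.05 there were 9 of the 12, on both sides of 0, beside 7181 of all 20484 tested loci. KAT1, an inward potassium channel, was 2.04-fold lower at −1.19, −0.95 and −0.94 (−1.03 ± 0.14, limma adjusted p = 0.0195). TGG1, a myrosinase abundant in guard cells, was lower at −0.72 ± 0.03 (limma adjusted p = 0.0228). GORK, the outward potassium channel, was 2.13-fold higher at 1.21, 1.23 and 0.83 (1.09 ± 0.23, limma adjusted p = 0.0220). None of these 3 passed without replicate 1 (limma adjusted p = 0.0902, 0.138 and 0.0913 for KAT1, TGG1 and GORK), without replicate 2, with median centring or with replicates 1 and 2 averaged. With median centring TGG1 stood at −0.40. All 12 markers were well above background in both genotypes on all arrays. The summed normalized intensity of the list was 21143, 20176 and 16810 in tdt-1 and 25956, 25164 and 19055 in wild type on replicates 1, 2 and 3. The sum was thus lower in tdt-1 on each array, although the ranges over arrays overlapped. It is weighted to bright probes and shows no fall of the list as a whole. TGG1, the brightest in wild type, had log2 intensities of 13.27, 13.20 and 12.32 in tdt-1 and 13.96, 13.92 and 13.08 in wild type. AHA1, the next brightest in wild type, had ratios of 0.43, 0.33 and 0.37 and did not pass. Of the 12 means, 5 lay above 0 and 7 below.

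Of 6 markers of mesophyll, the tissue beneath the epidermis, none passed limma's test. All 6 had means below 0, and 4 had an unadjusted p under 0.05, beside 7181 of all 20484 tested loci. Their median was −0.63, −0.64 and −2.43 on replicates 1, 2 and 3. The carbonic anhydrase gene CA1 stood at −1.58 ± 0.89 (limma adjusted p = 0.0633) and the antenna gene LHCB3 at −1.39 ± 0.90 (limma adjusted p = 0.0794). All 6 were well above background in both genotypes on all arrays. Their summed normalized intensity ranged from 112560 to 321090 in tdt-1 and from 444030 to 515210 in wild type. These sums include RBCS1A, whose probe was saturated on 2 arrays in tdt-1 and on 3 in wild type, so they and the median are inexact. Of the stomatal lineage genes, MUTE, EPF1, SDD1, YDA and BASL also had their lowest ratio on replicate 3, whereas SPCH, FAMA, EPFL9, TMM and ERECTA did not. The part of these markers in the ratios of the stomatal genes was not tested.

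**Figure D5:**
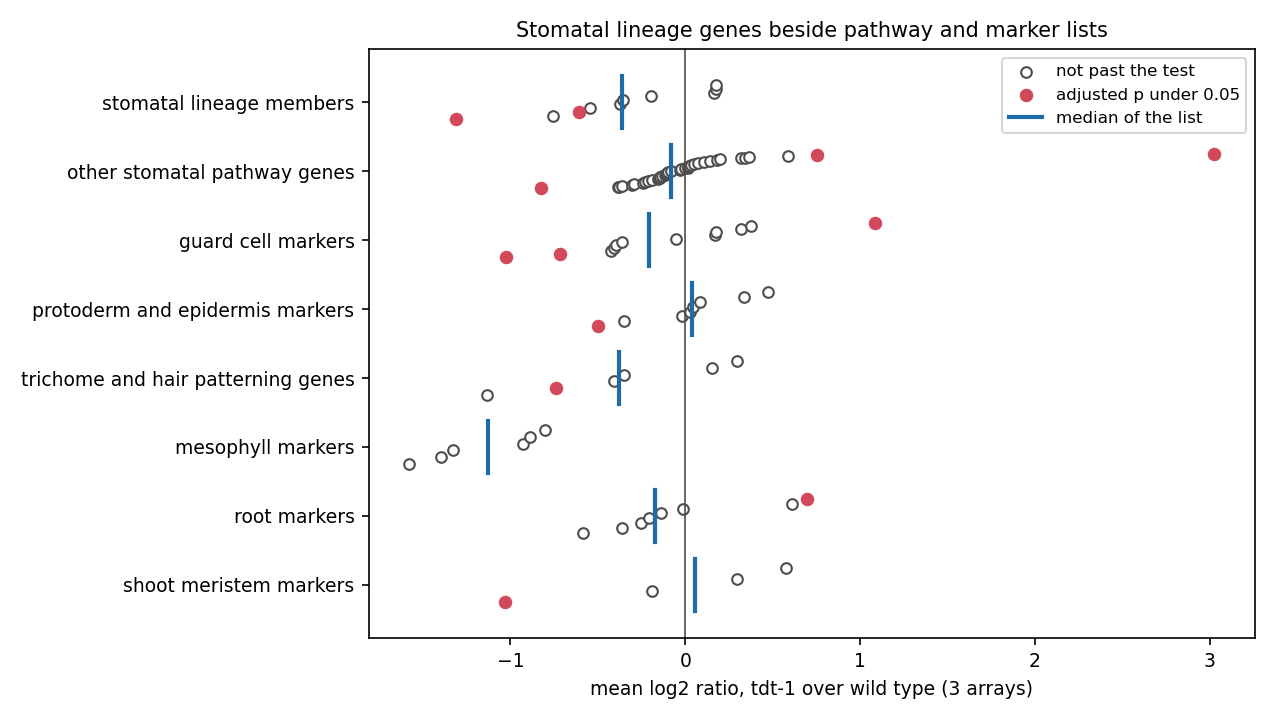
Mean log2 ratio of tdt-1 over wild type over 3 arrays (x axis) for each tested gene of the stomatal lineage, of the further pathway list and of the marker lists (rows), filled where the limma adjusted p was under 0.05, with the median of each list (blue bar). The stomatal lineage median is at −0.36, the pathway median at −0.08 and the mesophyll median at −1.13.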

How the data were processed

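Total RNA of whole seedlings underwent linear amplification and Cy3 or Cy5 labelling, per the labels. The deposited scanner files hold spot and background intensity values on a linear scale, from Agilent Feature Extraction 8.5.1.1 for replicates 1 and 2 and 9.1.3.1 for replicate 3, per the file headers. They also hold a log10 ratio of Cy5 over Cy3 that the software had normalized for dye, per the file headers, and 0 or 1 flags, deposited as other values, for spots well above background (with a threshold multiplier of 2.6 for replicates 1 and 2, but 13 for replicate 3), saturated or non-uniform. The deposited series table holds log2 ratios with a median of 0 on each array, which had slope 1 and r = 1 against the scanner log ratio turned to tdt-1 over wild type.

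Background was corrected with limma 3.58.1 (R 4.3.3) by normexp with offset 50, ratios were normalized by loess within arrays (controls given weight 0), and replicate 3 was turned in sign. Non-uniform spots were left out (16, 11 and 81). Probes entered the test if either genotype passed the background flag on every array, and the brightest probe stood for a locus. Levels in 1 channel come from the same values after quantile normalization of mean intensity between arrays. Ratios were tested against 0 with lmFit and eBayes, with Benjamini-Hochberg adjustment over 20484 loci, threshold 0.05. The fit was tested on simulated data.

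The number of arrays limits the precision. In tdt-1 65.2% to 69.4% of spots passed the background flag, and in wild type 69.4% to 79.7%. The members, lists and alternatives were chosen with earlier results of these data known. All 97 listed loci were found in the RefSeq gene table of TAIR10.1, which served for names and neighbours, where 3 labels (CRSP, AP2C3 and SOL2) are not listed. Named were all members, pathway genes past the test, the 8 with the smallest p otherwise and direct partners or paralogs, and of each marker list those past the test or else the 2 with the smallest p. Alternatives changed the background correction or filter, the normalization, the probe rule, the dye term, the array weights, the variance model or the arrays used.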

Additional observations from a re-analysis of the deposited data

How the results depend on the processing

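All samples carry the same group label, tdt-1, so there are no groups of samples to pair by replicate number. The test of the ratio within each array already pairs the genotypes, so a replicate block has nothing to add. As reported, 1508 loci were higher and 1222 lower. These counts were 1 and 0 with median centring in place of loess (all-locus median 0.10), 24 and 19 with replicates 1 and 2 averaged, 6941 and 6260 with a dye term and 8170 and 6710 with array weights. Leaving out each array in turn gave 66 to 7002 higher and 45 to 5463 lower, the highest counts without replicate 3. By construction, fitting a dye term or dropping replicate 3 leaves replicates 1 and 2 as the sole source of spread.

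Of the 10 stomatal lineage genes, 0 were higher and 2 lower as reported. By the scanner's log ratio, which the series table's values repeat, 4 were lower, as MUTE and EPF1 joined SDD1 and FAMA. Of all tested loci 6.88% were then lower. With a normexp offset of 16, 3 were lower, as EPF1 joined (limma adjusted p = 0.0343), beside 6.9% of all tested loci. With median centring 0 were lower, and likewise 0 with replicates 1 and 2 averaged. With a dye term 1 was higher and 7 lower, beside 33.9% and 30.6% of all tested loci. With array weights these counts were 3 and 7, beside 39.9% and 32.8%. Leaving out each array gave 0 to 2 higher and 0 to 7 lower, the most without replicate 3, where 34.2% and 26.7% of all tested loci were called. Their median of −0.36 was −0.17 with median centring and lay between −0.40 and −0.25 with each array left out. SDD1 stayed between −1.51 and −1.06 and FAMA between −0.72 and −0.43 over 15 alternatives, with limma adjusted p from 1.66e-05 to 0.227 and from 0.000279 to 0.331. Of the further pathway genes, 2 were higher and 1 lower as reported. The counts were 0 and 0 with median centring or averaging. Of the 39 tested they were 8 and 14 with a dye term, beside 33.9% and 30.6% of all tested loci. With array weights they were 12 and 14, beside 39.9% and 32.8%. By the scanner's log ratio or the series table's values, 3 were higher and 2 lower, beside 8.3% and 6.88% of all tested loci. Leaving out each array gave 1 to 8 higher and 0 to 9 lower. The highest counts came without replicate 3, beside 34.2% of all tested loci higher and 26.7% lower.

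Some genes, none of them past the test as reported, changed sign. With median centring YDA was at −0.00236, MPK6 at 0.0924, SCRM at 0.16 and MKK5 at 0.16. With array weights POLAR was at 0.0355, BRXL2 at 0.0652 and MKK4 at −0.00151. MPK3 was at −0.12 with a dye term or averaging. With each array left out, BASL ranged from −0.0408 to 0.47, BRXL2 from −0.19 to 0.0994, MPK3 from −0.13 to 0.45 and MKK4 from −0.0336 to 0.0663. The cause of these changes of sign was not tested.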

Other observations

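A few marker genes outside the stomatal lineage passed the test. ATML1, a homeodomain factor that defines the epidermal layer, was lower in tdt-1 at −0.47, −0.38 and −0.64 on replicates 1, 2 and 3 (−0.50 ± 0.13, limma adjusted p = 0.0483), and it was the member past the test among 8 markers of protoderm and epidermis, whose median was 0.04. ATML1 did not pass under several alternatives, among them no background correction (limma adjusted p = 0.0593) and median centring (−0.18, limma adjusted p = 0.746). Of the 8 markers, 3 had an unadjusted limma p under 0.05. Among 6 tested genes of trichome and hair patterning, TRY alone was past the test, and the list median was −0.38, with 3 members at an unadjusted p under 0.05.

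Of 8 root markers CASP1, which builds the Casparian strip of the endodermis, was higher at 0.55, 0.82 and 0.72 (0.69 ± 0.14, limma adjusted p = 0.0295), no other passed limma's test (3 at an unadjusted p under 0.05), and the list median was −0.17. Of 4 shoot meristem markers CLV1, a receptor kinase that limits the stem cell pool, was 2.05-fold lower at −1.14, −1.08 and −0.88 (−1.03 ± 0.14, limma adjusted p = 0.0192), no other passed limma's test (2 at an unadjusted p under 0.05), and the list median was 0.05. These counts stand beside 5.97% of all tested loci lower and 7.36% higher, and beside 7181 of 20484 at an unadjusted p under 0.05. The calls of ATML1, TRY, CASP1 and CLV1 were all lost without replicate 1, without replicate 2, with median centring and with replicates 1 and 2 averaged.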
